A study of Mus musculus with 447 samples.

Results

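Ghrelin is a peptide hormone made by epsilon cells of the fetal islet and by endocrine cells of the stomach. Its gene, Ghrl, encodes preproghrelin, from which prohormone convertases release the mature peptide. Ghrelin binds its receptor, Ghsr, only after a medium-chain fatty acid, usually octanoate, has been attached to a serine. That step is carried out in the endoplasmic reticulum by the enzyme encoded by Mboat4, ghrelin O-acyltransferase. Ghrl and Mboat4 are the 2 genes described here, of 40824 genes in the deposited matrices. They were taken by symbol, and both have a row in each of the 2 matrices.

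RNA was measured by Smart-seq3, a plate-based method for full-length polyadenylated transcripts, in single cells sorted into the wells of plates from fetal mouse pancreas at E15.5. The genotype Pdx1CreNgn3KONeurod1OE (here Ngn3KO) carries floxed Neurog3 (Ngn3) and NeuroD1 overexpression, and Pdx1CreNeurod1OE (here Neurod1OE) carries the overexpression alone. According to the design text, the sorted cells were GFP-positive and a Pdx1-driven, tamoxifen-inducible Cre recombinase acted in both, so cells of every pancreatic lineage that passed through a Pdx1-positive state could be included, and no cells without overexpressed NeuroD1 were analysed here. Neurog3 starts endocrine differentiation in the pancreas and NeuroD1, a related bHLH factor, acts after it. The titles carry a set number whose meaning is not stated and which was treated as a batch. Set 2 held 322 cells, 63.7% of them Ngn3KO and 36.3% Neurod1OE, and set 3 held 30 Ngn3KO and 95 Neurod1OE cells.

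No animal or litter is named in the labels, which makes each genotype 1 sample per set, and no p-value was computed. Intervals are exact 95% intervals (Poisson for summed reads, Clopper-Pearson for shares of cells) and cover counting error only. Levels are CPM, reads per 1000000 reads of the cell or of the summed cells. Median totals per cell were 344128 reads in Ngn3KO and 572744 in Neurod1OE cells of set 2, and 728074 and 695079 in set 3. Summed Neurog3 was at 3.06 CPM in Ngn3KO and 3.89 CPM in Neurod1OE cells of set 2, and in set 3 at 3.72 CPM in Ngn3KO and 17.8 CPM in Neurod1OE cells; which part of the transcript these reads cover is unknown. Of the 30 Ngn3KO cells of set 3, 29 had at least 1000 CPM of the acinar enzyme gene Cpa1 and under 1000 CPM of the glucagon gene Gcg, and summed Neurod1 there was 30.4 CPM, against 217.4 CPM in Neurod1OE cells. Sex and the predicted gene Gm12338 also split the cells: in set 2, Xist against 4 Y-linked genes called 0 Ngn3KO cells male, 4 uncalled and the rest female, against 66 female and 50 male Neurod1OE cells, and all 30 Ngn3KO cells of set 3 were male.

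Ghrl (ENSMUSG00000064177.8) lies on the minus strand at chr6:113716119-113719880 of GRCm38 (mm10) and its first-numbered transcript has 5 exons. The stretch below is the part of that transcript that codes for the 28 residues of mature ghrelin (residues 24 to 51). It is shown because both genes act on it: Ghrl carries it, and the enzyme encoded by Mboat4 acylates the serine whose codon, the third of the peptide, is in capitals. It spans an intron, with 39 bases in exon 2 (chr6:113719322-113719360) and 45 bases in exon 3 (chr6:113719182-113719226).
Ghrelin coding stretch: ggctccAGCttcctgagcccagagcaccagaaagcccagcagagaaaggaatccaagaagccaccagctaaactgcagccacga

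Both genotypes carry overexpressed NeuroD1, which pairs with E proteins and binds E-boxes, so the E-boxes of the Ghrl promoter are shown. RefSeq gives 4 starts for Ghrl, and the promoter of the outermost (250 bases before to 50 after the start, GRCm38.p6, chr6:113719862-113720161, minus strand) follows with each CANNTG in capitals.
Ghrl promoter: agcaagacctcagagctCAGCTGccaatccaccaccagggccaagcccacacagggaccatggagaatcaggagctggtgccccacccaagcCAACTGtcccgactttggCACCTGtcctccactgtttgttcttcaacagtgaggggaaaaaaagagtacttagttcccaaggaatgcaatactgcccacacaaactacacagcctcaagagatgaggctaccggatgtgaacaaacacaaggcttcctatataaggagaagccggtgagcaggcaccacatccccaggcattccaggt
It holds 3 matches to CANNTG, searched on both strands, and all 4 Ghrl promoters hold at least 1. Of 32851 RefSeq promoters of the same length, 72.3% hold CANNTG. The narrower form CAGATG is in 2 of the 4 Ghrl promoters and in 17.2% of all promoters, with no match in the sequence shown. A match describes the letters and is no evidence of binding.

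Mboat4 (ENSMUSG00000071113.4) lies on the plus strand at chr8:34115030-34125182, and its first-numbered transcript has 3 exons. Annotated genes overlap both members on the opposite strand: Gm44033 and Gm26982 at Ghrl, the second by 3 bases at its end, and Gm39158 inside Mboat4. Without a known strand setting for the counting, reads of such pairs cannot be told apart. Gm26982 had 7.50 CPM in Ngn3KO and 7.23 CPM in Neurod1OE cells of set 2, and in set 3 it had 4.85 CPM in Ngn3KO and 4.37 CPM in Neurod1OE cells; Gm44033 and Gm39158 were not analysed here.

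Ghrl was found at a low level in most cells and at a very high level in a few. In set 2, single Ngn3KO cells ranged from 0 through a median of 29.6 to 32313 CPM of Ghrl, and Neurod1OE cells from 0 through 28.6 to 21904 CPM. In set 3, Ngn3KO cells ranged from 0 through 11.6 to 1176 CPM, and Neurod1OE cells from 0 through 34.3 to 66866 CPM. Medians of the 2 genotypes of set 2 lay close together while the upper tails differed: the 90th percentile was 1833 CPM in Ngn3KO and 544 CPM in Neurod1OE cells of set 2, and 246 and 1383 CPM in set 3. The cell with 66866 CPM, a Neurod1OE cell of set 3, devoted 6.69% of its reads to Ghrl and had 28.7 CPM of Gcg.

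**Figure D1:**
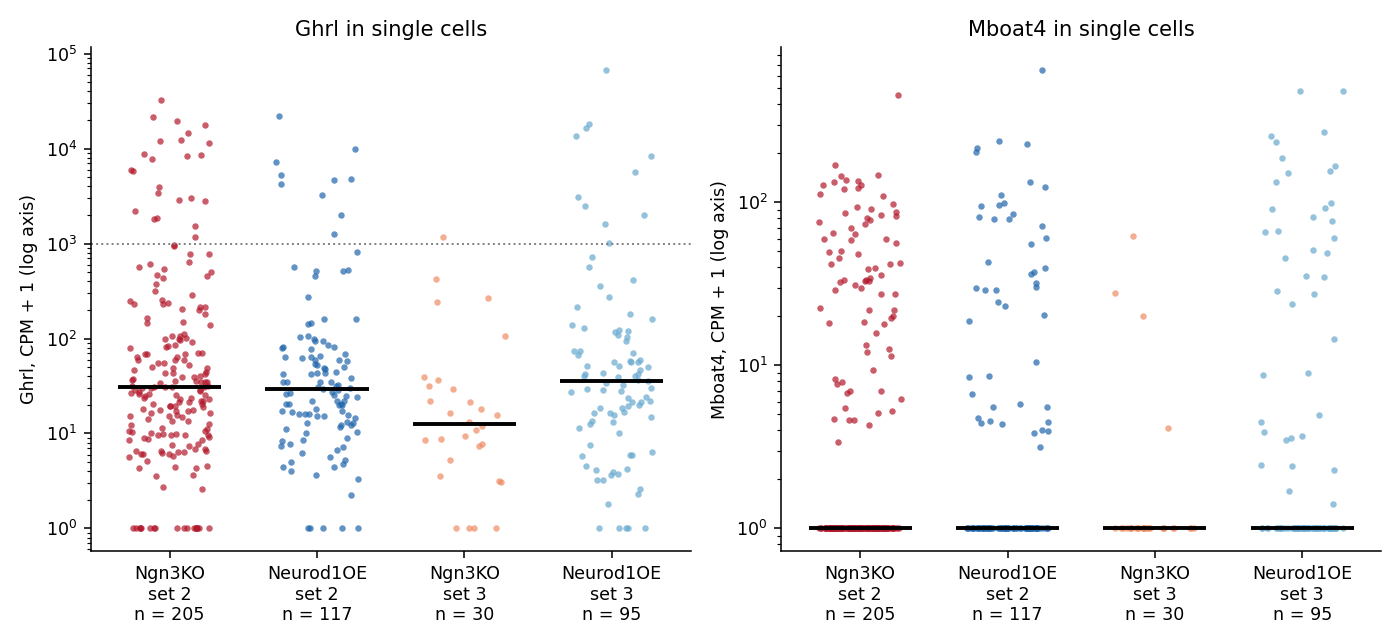
Ghrl (left) and Mboat4 (right) in each cell, as CPM + 1 on log axes, by genotype and set; points are cells, bars are medians, and the dotted line marks 1000 CPM of Ghrl. Median Ghrl was 29.6, 28.6, 11.6 and 34.3 CPM from left to right, with single cells up to 66866 CPM, and median Mboat4 was 0 CPM in all 4 groups.

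The presence of a Ghrl read did not separate cell types. A read was found in 91.2% of Ngn3KO and 95.7% of Neurod1OE cells of set 2, and in 26 of 30 (86.7%) and 90 of 95 (94.7%) of set 3. Among the 29 Ngn3KO cells of set 3 with Cpa1 and without Gcg at 1000 CPM, 25 (86.2%) had a read, with a median of 12.2 CPM of Ghrl and a median total of 711280 reads. Of all 30 Ngn3KO cells of set 3, 5 had 100 CPM or more of Ghrl, and 1 Cpa1-rich cell had 1176 CPM. Levels near 10 CPM are therefore not taken as a mark of ghrelin cells, and whether they are background was not tested. Cells at 1000 CPM or more are called Ghrl-rich.

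In set 2, 24 Ngn3KO cells were Ghrl-rich (11.7%, interval 7.65 to 16.9%), against 10 Neurod1OE cells (8.55%, interval 4.17 to 15.2%). In set 3 they were 1 of 30 Ngn3KO cells (3.33%, interval 0.0844 to 17.2%) and 11 of 95 Neurod1OE cells (11.6%). These intervals cover the counting of cells only, and with 1 sample of each genotype per set a difference in this share between the genotypes could not be tested. The 46 cells held most Ghrl reads of their groups: 94.8% in Ngn3KO and 88.3% in Neurod1OE cells of set 2, and 56.9% and 95.8% in set 3. In set 2, 5 Ngn3KO and 3 Neurod1OE cells were enough for 50% of the reads, and in set 3, 1 cell of each genotype.

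Summed over cells, Ghrl stood at 1193 CPM in Ngn3KO (interval 1185 to 1200) and 533 CPM in Neurod1OE cells (interval 528 to 538) of set 2. This is a log2 ratio of 1.16 (interval 1.14 to 1.18), on CPM + 1, as for every ratio here. Genes counted as measured when 1 genotype had 10 CPM or more and reads in 10% of its cells, and the ratio ranked 56 from the top of 10010 of them. Of these, 0.859% were 2-fold or more higher and 1.67% lower in Ngn3KO, with a median ratio of -0.07. Without the cell of highest Ghrl in each genotype the ratio was 1.43, and with each cell weighted equally it was 0.85, below the 2-fold mark. It was 0.70 in Gm12338-positive, 1.52 in Gm12338-negative and 0.94 in female cells.

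In set 3 the direction was opposite. Summed Ghrl was 89.9 CPM in Ngn3KO (interval 85.9 to 93.9) and 1143 CPM in Neurod1OE cells (interval 1135 to 1151), a log2 ratio of -3.65. Of 10478 measured genes, 5.96% were 2-fold or more higher and 31.8% lower in Ngn3KO, and their median was -0.57. The comparison sets mostly Cpa1-rich cells against a mixture in which 32 of 95 cells had at least 1000 CPM of Gcg, and genotype and cell type cannot be told apart there. Leaving out the cell with most Ghrl reads left 40.5 CPM in Ngn3KO and 490 CPM in Neurod1OE cells.

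Mboat4 was sparse and differed little between the genotypes of set 2. Single Ngn3KO cells ranged from 0 to 454 CPM and Neurod1OE cells from 0 to 645 CPM in set 2, and Ngn3KO cells from 0 to 60.9 CPM and Neurod1OE cells from 0 to 482 CPM in set 3, with a median of 0 in each group. A read was found in 81 Ngn3KO (39.5%) and 47 Neurod1OE cells (40.2%) of set 2. In set 3 the counts were 4 of 30 Ngn3KO (13.3%, interval 3.76 to 30.7%) and 40 of 95 Neurod1OE cells (42.1%). After each cell was thinned to 165298 reads, which left out 31 Ngn3KO and 2 Neurod1OE cells of set 2 and 3 and 9 of set 3, 35.6% of Ngn3KO and 33.9% of Neurod1OE cells of set 2 had a read, against 7.41% and 38.4% in set 3.

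Summed Mboat4 was 21.6 CPM in Ngn3KO (interval 20.6 to 22.6, 1719 reads) and 20.5 CPM in Neurod1OE cells (interval 19.5 to 21.5, 1547 reads) of set 2. The log2 ratio of 0.07 had an interval of -0.03 to 0.17, and it changed sign with the cells used, from -0.49 in female to 0.57 in Gm12338-positive cells. In set 3 the sums were 4.44 CPM (98 reads) in Ngn3KO and 25.2 CPM (1790 reads) in Neurod1OE cells, a log2 ratio of -2.27 (interval -2.58 to -1.97). Both genes were thus lower in the mostly Cpa1-rich Ngn3KO cells of set 3, while in set 2 the 2-fold difference in summed Ghrl had no counterpart in summed Mboat4.

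Within groups, Mboat4 was found most often in the Ghrl-rich cells. In Ngn3KO cells of set 2, 19 of 24 Ghrl-rich cells had a Mboat4 read (79.2%, interval 57.8 to 92.9%), against 12 of 32 cells with 100 to 1000 CPM of Ghrl (37.5%) and 50 cells under 100 CPM (33.6% of that band, interval 26 to 41.7%). In Neurod1OE cells of set 2 the counts were 8 of 10 (80%, interval 44.4 to 97.5%), 5 of 13 (38.5%) and 34 of 94 (36.2%, interval 26.5 to 46.7%). In Neurod1OE cells of set 3 they were 9 of 11 (81.8%, interval 48.2 to 97.7%), 4 of 15 (26.7%) and 27 of 69 (39.1%, interval 27.6 to 51.6%). The middle band stood at 26.7 to 38.5% over the 3 groups. These intervals cover the counting of cells only, the cells of a group are not replicates, and the difference between the bands was not tested.

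Depth differed between the bands, mostly in the middle one. Ghrl-rich cells had median totals of 338523 reads in Ngn3KO and 599991 reads in Neurod1OE cells of set 2, and cells under 100 CPM of Ghrl had 361608 and 573846 reads. These medians were 698051 and 731097 reads in Neurod1OE cells of set 3. Cells from 100 to 1000 CPM of Ghrl were shallower, with 213060 reads in Ngn3KO cells of set 2, and 519011 and 392906 reads in Neurod1OE cells of set 2 and set 3. At the thinned depth, 15 of 22 Ghrl-rich Ngn3KO cells of set 2 had a Mboat4 read (68.2%), against 29.6% of cells under 100 CPM. The thinned shares in Neurod1OE cells were 77.8% in Ghrl-rich and 29% in Ghrl-poor cells of set 2, while set 3 gave 90% and 31.8%. The middle band then stood at 41.2% in Ngn3KO cells of set 2, and at 38.5% and 30% in Neurod1OE cells of set 2 and set 3. Among the Cpa1-rich Ngn3KO cells of set 3, assumed here and not shown to lack the enzyme, 4 of 29 had a read (13.8%) at a median total of 711280 reads. The 30 Ngn3KO cells of set 3 gave 1 of 25 (4%) under 100 CPM of Ghrl, and 0 of 23 at the thinned depth. From 100 to 1000 CPM they gave 2 of 4, and the 1 Ghrl-rich cell had a read. The shares of Ghrl-poor cells in the 3 groups lay above both 13.8% and 4%. Cpa1-rich Neurod1OE cells of set 3 with Gcg under 1000 CPM gave 6 of 15 (40%), but 2 of these 15 were Ghrl-rich and their median total was 1375505 reads.

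**Figure D2:**
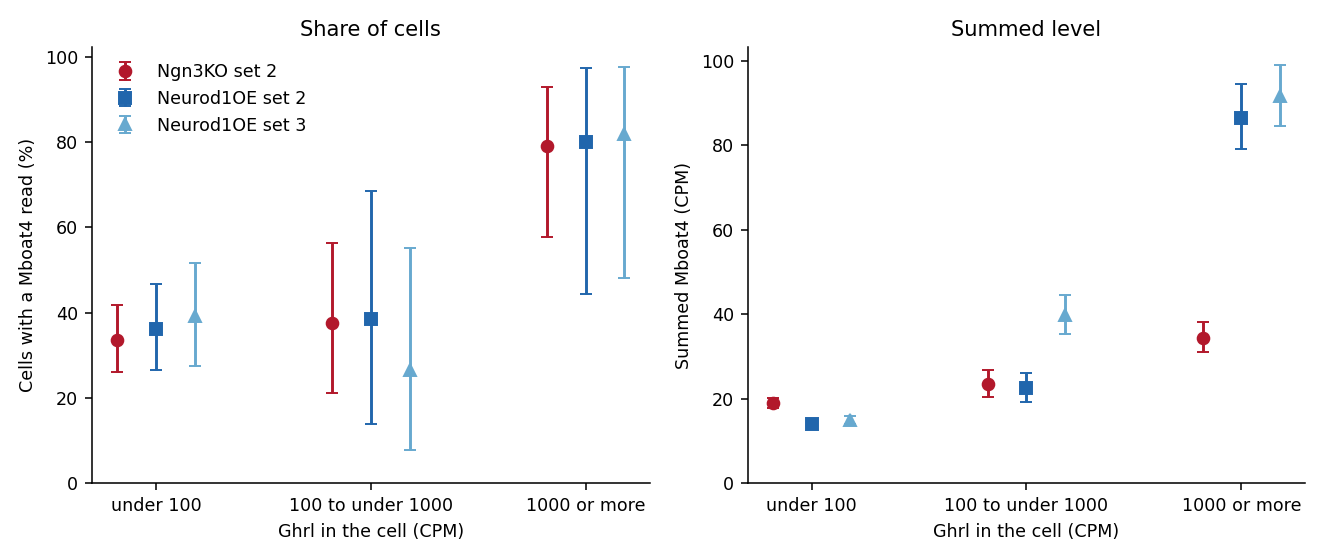
Share of cells with a Mboat4 read (left, percent) and summed Mboat4 (right, CPM) in cells under 100, from 100 to under 1000, and at 1000 CPM or more of Ghrl; points are the 3 groups with more than 30 cells and bars are exact 95% intervals of counting error. The share is 79.2 to 81.8% in Ghrl-rich cells of all 3 groups, and summed Mboat4 there is 34.4 CPM in Ngn3KO and 86.5 and 91.5 CPM in the Neurod1OE groups.

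The summed level gave the same order with a smaller step in Ngn3KO cells. Ghrl-rich Ngn3KO cells of set 2 had 34.4 CPM of Mboat4 (interval 31 to 38.1), against 19 CPM (interval 17.9 to 20.1) in cells under 100 CPM of Ghrl, a log2 ratio of 0.82. Of 10079 genes measured in that comparison, 7.08% were 2-fold or more higher and 5.8% lower in the Ghrl-rich cells, and Mboat4 was not among them. In Neurod1OE cells of set 2, Mboat4 had 86.5 CPM in Ghrl-rich and 14.1 CPM in Ghrl-poor cells, a log2 ratio of 2.53, where 10.5% of measured genes were 2-fold higher and 14.7% lower. In set 3 it had 91.5 CPM in Ghrl-rich and 14.9 CPM in Ghrl-poor Neurod1OE cells, a log2 ratio of 2.54, where 13.6% were higher and 16% lower. One cell held 13.9%, 33.6% and 28% of the Mboat4 reads of the Ghrl-rich cells in the 3 groups in this order. Of 9299 genes measured in all 3 groups, 27 were at least 2-fold higher and 28 at least 2-fold lower in all 3.

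Among the Ghrl-rich cells themselves, those with most Ghrl had a Mboat4 read no more often than the others over the 3 groups. Cells at 10000 CPM or more of Ghrl had a Mboat4 read in 6 of 8 Ngn3KO cells of set 2, 1 of 1 Neurod1OE cell of set 2 and 2 of 4 Neurod1OE cells of set 3. Cells from 1000 to 10000 CPM had one in 13 of 16, 7 of 9 and 7 of 7. Depth differed: median totals of the upper and lower band were 431336 and 321244 reads in Ngn3KO cells of set 2. In Neurod1OE cells of set 3 they were 264348 and 871783 reads. Summed Mboat4 in the upper and lower band was 39.2 and 31.6 CPM, 42.3 and 90.7 CPM, and 135.8 and 80.9 CPM in the order of the 3 groups. The Ngn3KO cell with 32313 CPM of Ghrl had 32.5 CPM of Mboat4 from 11 reads, and an Ngn3KO cell with 17716 CPM of Ghrl had 0 of its 733572 reads on Mboat4. In the other direction, the highest Mboat4 of a Ngn3KO cell, 454 CPM from 246 reads, stood in a cell of set 2 with 0 CPM of Ghrl and 77111 CPM of Gcg. The highest of all, 645 CPM from 78 reads, stood in a Neurod1OE cell of set 2 with 7236 CPM of Ghrl.

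Turned round, 19 of 81 Ngn3KO cells of set 2 with a Mboat4 read were Ghrl-rich (23.5%), against 5 cells without one (4.03%). In Neurod1OE cells these were 8 of 47 (17%) and 2 of 70 (2.86%) in set 2, and 9 of 40 (22.5%) and 2 of 55 (3.64%) in set 3. A Mboat4 read was thus found in 37 of the 46 Ghrl-rich cells, yet most cells with a Mboat4 read had little Ghrl. The median Ghrl of cells with a Mboat4 read was 47.8, 56.6 and 39.8 CPM in the 3 groups, against 22.3, 19.2 and 33 CPM in cells without one.

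Over single cells, Spearman's rho between Ghrl and Mboat4 was 0.23 over all Ngn3KO cells of set 2, 0.39 over all Neurod1OE cells of set 2 and 0.23 over the 95 Neurod1OE cells of set 3. The cells of a group share plate processing and unknown animals, most Mboat4 values are 0, and correlations of this size in sparse counts are given as a description. When only cells under 1000 CPM of Ghrl were used, rho was 0.082, 0.30 and 0.043, so that outside the Neurod1OE cells of set 2 the relation rested on the Ghrl-rich cells.

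Ranked by the lowest rho over these 3 groups, Mboat4 was number 7 of 8368 genes by likeness to Ghrl, and Ghrl was number 3 by likeness to Mboat4. Within single groups Mboat4 ranked 42 in Ngn3KO cells of set 2, 2 in Neurod1OE cells of set 2 and 362 in Neurod1OE cells of set 3. By the same measure the genes most like Ghrl were Serpina1c (lowest rho 0.30), Serpina1e (0.29), Bsg (0.28), Serpina1a (0.26), Txndc12 (0.24), Nptn (0.24), Mboat4 (0.23), Ctsd (0.22), Serpina1b (0.22), Itm2b (0.21), Vkorc1 (0.20) and Nefm (0.19). The Serpina1 genes encode secreted alpha-1-antitrypsins and are near-identical copies, so how reads were divided among them is uncertain. Serpina1c and Vkorc1 were chosen by their rho with Ghrl in these same cells, so their levels describe that choice and add no separate support. Serpina1c had 173.5 CPM in Ghrl-rich and 53.7 CPM in Ghrl-poor Ngn3KO cells of set 2. In Neurod1OE cells Ghrl-rich and Ghrl-poor cells of set 2 had 131.3 and 40.6 CPM, and those of set 3 had 342 and 68.4 CPM. Vkorc1, which recycles vitamin K for the carboxylation of proteins, had 76.8 and 24.8 CPM in Ghrl-rich and Ghrl-poor Ngn3KO cells of set 2, 81.3 and 18.9 CPM in Neurod1OE cells of set 2, and 67.7 and 16.3 CPM in set 3. Bsg encodes the membrane protein basigin, Ctsd a lysosomal protease, and Nefm a neurofilament subunit. The genes least like Ghrl were the homeobox gene Meis2, Dynll1, Nedd8, Exosc1, Cdkn2aip and Sub1, whose rho lay between -0.14 and -0.30 in each group.

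**Figure D3:**
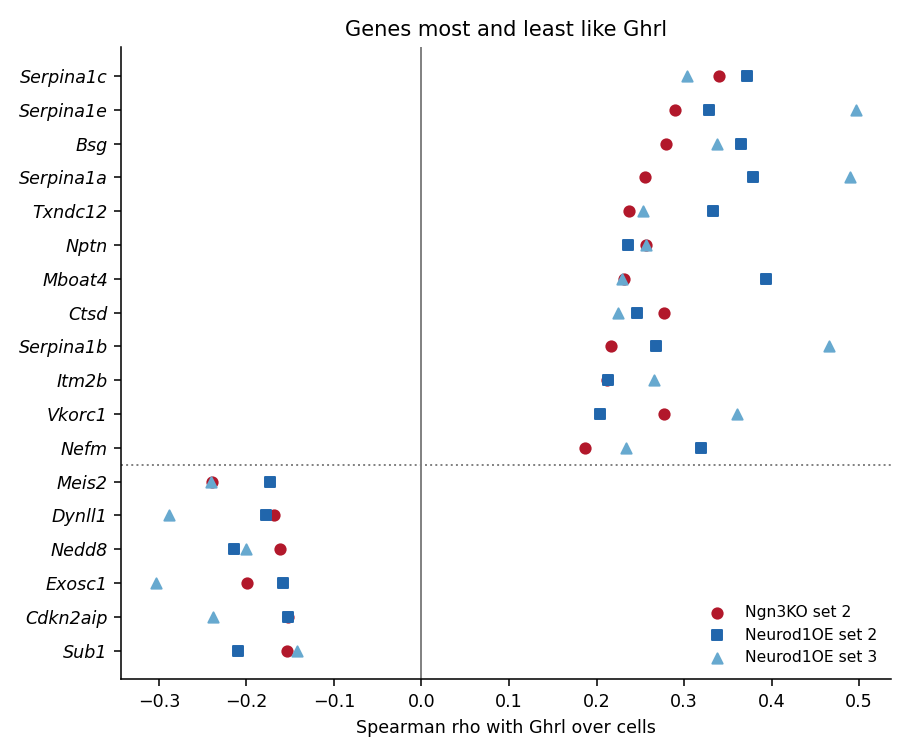
Spearman rho with Ghrl over single cells (horizontal axis) for the 12 genes with the highest and the 6 with the lowest values, one symbol per group of cells. Mboat4 lies at 0.23, 0.39 and 0.23 in Ngn3KO set 2, Neurod1OE set 2 and Neurod1OE set 3, and Serpina1e reaches 0.50 in the last.

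Ghrl-rich cells differed in their Gcg level between the groups. In set 2, 23 of 24 Ghrl-rich Ngn3KO cells and 9 of 10 Ghrl-rich Neurod1OE cells had at least 1000 CPM of Gcg, as did 98.5% of all Ngn3KO and 96.6% of all Neurod1OE cells. In set 3, 0 of 1 Ngn3KO and 7 of 11 Neurod1OE Ghrl-rich cells did. Median Gcg of the Ghrl-rich cells was 56232 CPM in Ngn3KO and 17352 CPM in Neurod1OE cells of set 2, and 11908 CPM in Neurod1OE cells of set 3.

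By Gcg band, 14 Ngn3KO cells of set 2 with 50000 CPM or more of Gcg were Ghrl-rich (9.93% of that band, interval 5.54 to 16.1%), against 1 of 66 Neurod1OE cells (1.52%, interval 0.0384 to 8.16%). From 1000 to 50000 CPM of Gcg, 9 of 61 Ngn3KO cells (14.8%, interval 6.98 to 26.2%) and 8 of 47 Neurod1OE cells (17%, interval 7.65 to 30.8%) were Ghrl-rich. Summed Ghrl was 852 and 327 CPM in Ngn3KO and Neurod1OE cells of the upper band, and 2037 and 774 CPM in the middle band. Below 1000 CPM of Gcg there were 3 Ngn3KO cells, 1 of them Ghrl-rich, and 4 Neurod1OE cells, 1 of them Ghrl-rich. These shares too stand for 1 sample each and were not tested, and with the lower limit of the upper band at 20000 CPM the shares were 9.88% and 6.02%. In the Gm12338-positive subset 5 of 69 Ngn3KO and 0 of 24 Neurod1OE cells of the upper band were Ghrl-rich, and in the negative subset 9 of 72 and 1 of 42.

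In set 3, Ghrl-rich Neurod1OE cells stood in the middle band in 7 of 18 cells (38.9%, interval 17.3 to 64.3%), in the lowest band in 4 of 63 (6.35%, interval 1.76 to 15.47%), and in the highest in 0 of 14, which allows a share of up to 21.4% by a floor of 3 cells and 23.2% by the exact interval. Summed Ghrl in these bands, from low to high Gcg, was 1283, 1772 and 103.3 CPM. The 1 Ghrl-rich Ngn3KO cell of set 3 had 9.38 CPM of Gcg and was rich in Cpa1. Over cells, rho between Ghrl and Gcg was -0.19 in Ngn3KO and -0.17 in Neurod1OE cells of set 2, and 0.17 in Neurod1OE cells of set 3. With the hormone reads taken out of the totals the values were -0.17, -0.13 and 0.19.

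Mboat4 varied less with Gcg than Ghrl did in Ngn3KO cells of set 2. A Mboat4 read was found in 39.3% and 39% of Ngn3KO cells of the middle and upper bands of set 2, in 21 of 47 (44.7%) and 23 of 66 (34.8%) Neurod1OE cells of set 2, and in 25 of 63 (39.7%), 8 of 18 (44.4%) and 7 of 14 (50%) Neurod1OE cells of set 3 from the lowest band to the highest. Summed Mboat4 in the middle and upper bands was 16.5 and 22.4 CPM in Ngn3KO cells of set 2, and 26 and 13.1 CPM in Neurod1OE cells of set 2. It differed more by the Gm12338 split: 48 of 97 Gm12338-negative Ngn3KO cells (49.5%) and 37 of 66 Gm12338-negative Neurod1OE cells (56.1%) of set 2 had a read, against 30.6% of the Gm12338-positive Ngn3KO and 19.6% of the Gm12338-positive Neurod1OE cells. Of the female Neurod1OE cells of set 2, 37 of 66 (56.1%) had a read as well, so Gm12338 and sex cannot be told apart there. The part of either split in the results of set 2 beyond the ratios given within subsets was not tested.

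**Figure D4:**
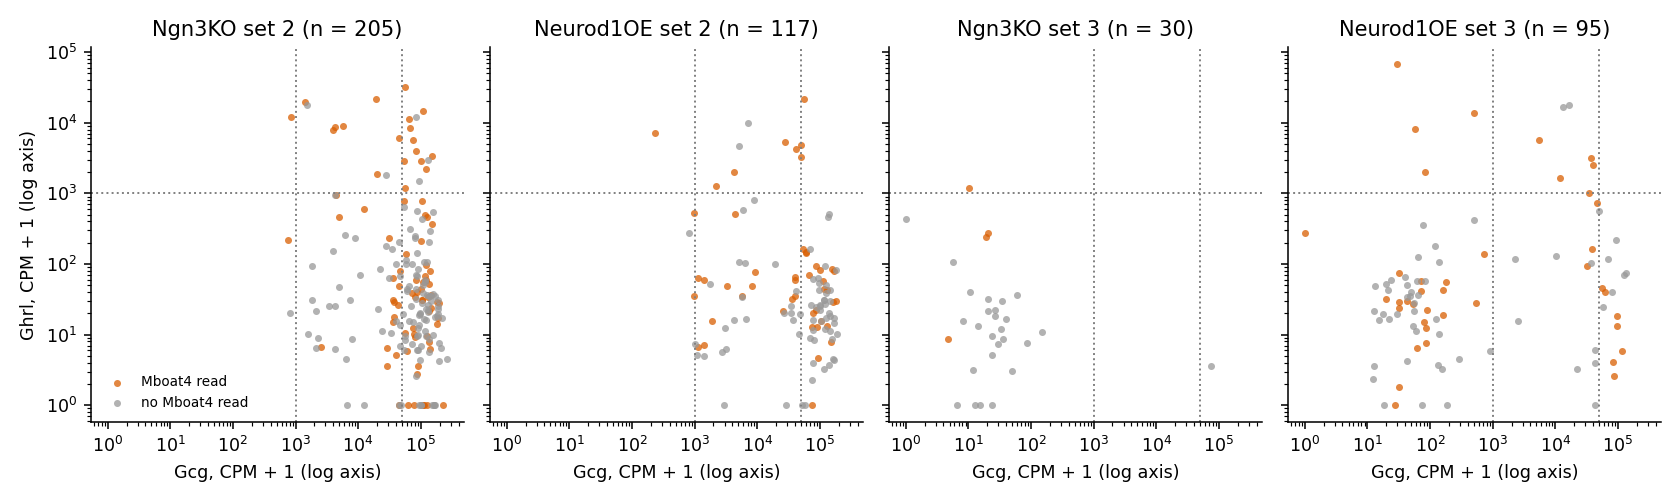
Ghrl against Gcg in single cells, both as CPM + 1 on log axes, one panel per genotype and set; orange points are cells with a Mboat4 read, grey points cells without, and dotted lines mark 1000 CPM of Ghrl and 1000 and 50000 CPM of Gcg. Above the horizontal line lie 24, 10, 1 and 11 cells, of which 19, 8, 1 and 9 are orange.

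Other hormones were not uniformly present in Ghrl-rich cells. Of the 46, 38 had at least 1000 CPM of Pyy (peptide YY), 6 of Ppy (pancreatic polypeptide), 1 of Sst (somatostatin) and 0 of the insulin genes Ins1 and Ins2 together, and 2 had none of Gcg, Ppy, Pyy, Sst or insulin at that level. For Pyy these were 19 of 24 Ngn3KO and 9 of 10 Neurod1OE cells of set 2, against 93.7% and 97.4% of all cells there. In Neurod1OE cells of set 3 they were 10 of 11, against 51.6% of all cells. For Ppy they were 2 of 24, 3 of 10 and 1 of 11 in the same order, against 24.4%, 24.8% and 11.6% of all cells. Few cells were rich in insulin at all, 10 Ngn3KO and 5 Neurod1OE cells of set 2 and 1 Neurod1OE cell of set 3. In Ngn3KO cells of set 2, 7 of 10 other hormone genes were lower by 2-fold or more, and 0 higher, in Ghrl-rich than in Ghrl-poor cells, where 5.8% of all measured genes were lower and 7.08% higher. In Neurod1OE cells of set 2, 4 of 9 were lower and 3 higher, against 14.7% and 10.5% of all measured genes. For set 3 Neurod1OE cells, 4 of 9 were lower and 1 higher, against 16% and 13.6%. Summed Ins2 was lower in all 3 groups, with 108.99 and 5341 CPM in Ghrl-rich and Ghrl-poor Ngn3KO cells of set 2, 59.5 and 170.8 CPM in Neurod1OE cells of set 2, and 3.12 and 168.7 CPM in Neurod1OE cells of set 3. The share of cells with an Ins2 read was 100% and 98%, 90% and 97.9%, and 27.3% and 24.6% in the same order. The part of the few insulin-rich cells in the Ghrl-poor sums of Ins1 and Ins2 was not tested. Summed Ins1 was lower in both groups of set 2, with 34.2 and 1029 CPM in Ngn3KO and 39.8 and 110.9 CPM in Neurod1OE cells. In Neurod1OE cells of set 3 it was the 1 hormone gene that was higher, with 157.2 and 47 CPM, and 1 cell held 49.3% of its reads in the Ghrl-rich cells. Iapp, which encodes amylin, was 2-fold lower in both groups of set 2, with 1525 and 4184 CPM in Ngn3KO and 1091 and 3528 CPM in Neurod1OE cells. Ppy differed in direction, with 305 and 1687 CPM in Ngn3KO cells and 6176 and 1659 CPM in Neurod1OE cells of set 2, where 1 cell held 90.8% of the Ppy reads of the Ghrl-rich cells.

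**Figure D5:**
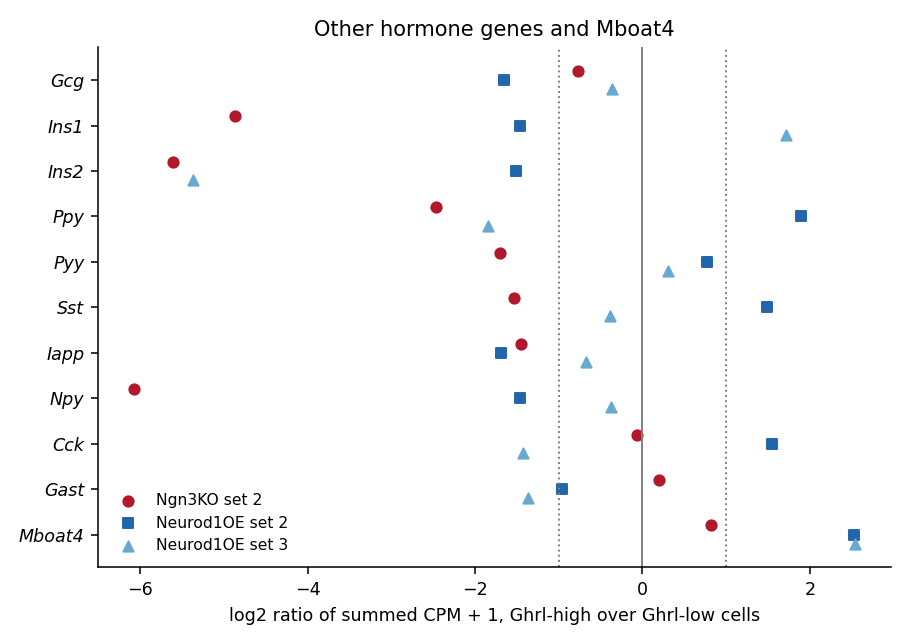
log2 ratio of summed CPM + 1 in Ghrl-rich over Ghrl-poor cells (horizontal axis) for the other hormone genes and Mboat4, one symbol per group; dotted lines mark 2-fold. Ins2 lies left of the lower line in all 3 groups, and Mboat4 lies at 0.82 in Ngn3KO set 2, 2.53 in Neurod1OE set 2 and 2.54 in Neurod1OE set 3.

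Genes that process proghrelin were compared between genotypes and between Ghrl-rich and Ghrl-poor cells. Of 7 such genes, 0 passed 2-fold between the genotypes in set 2. Over all measured genes of set 2, 0.859% were higher and 1.67% lower in Ngn3KO cells. In set 3, 5 of the 7 were lower in Ngn3KO cells, where the list's median log2 ratio was -2.89. Over all measured genes of that comparison 31.8% were lower and the median was -0.57. Between Ghrl-rich and Ghrl-poor cells 0 of 7 passed in either group of set 2. Over all measured genes, 7.08% were higher and 5.8% lower in Ngn3KO cells there, and 10.5% and 14.7% in Neurod1OE cells. With shares this low, 0 of 7 is not read as a result about the list. In Neurod1OE cells of set 3, 4 were higher (list median 1.10, against 0.02 for all genes), against 13.6% of all measured genes. Pcsk1 encodes prohormone convertase 1/3, the enzyme that cleaves proghrelin. It had 129.05 and 87 CPM in Ghrl-rich and Ghrl-poor Ngn3KO cells of set 2, 180.6 and 93.5 CPM in Neurod1OE cells of set 2, and 278 and 94.3 CPM in Neurod1OE cells of set 3. Pcsk2, which encodes the convertase that releases glucagon, had 1764 and 2126 CPM, 1316 and 2240 CPM, and 1478 and 931 CPM in the same order.

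The receptor side was at or near 0. Ghsr had 0 reads in every cell, which allows up to 0.0121 CPM over the 4 groups. Its partner gene Mrap2, its endogenous antagonist gene Leap2 and the related receptor gene Gpr39 did not reach 10 CPM in any group and were not measured. Of 4 genes for enzymes that can remove the acyl group or hydrolyse ghrelin, 2 were measured in set 2 and 0 of them passed 2-fold between genotypes. Over all measured genes of set 2, 0.859% were higher and 1.67% lower in Ngn3KO cells. In set 3 all 4 were measured and 2 were higher in Ngn3KO cells, Notum (30.9 and 6.35 CPM in Ngn3KO and Neurod1OE cells) and Bche (15.1 and 6.71 CPM). Over all measured genes of set 3, 5.96% were higher and 31.8% lower. Summed Lyplal1 was 2-fold higher in Ghrl-rich than in Ghrl-poor Neurod1OE cells of set 3, with 141.5 and 42.3 CPM, while 63.6% and 66.7% of these cells had a read. It was 1 of 2 list genes measured in that comparison, where 13.6% of all measured genes were higher. In Neurod1OE cells of set 2, 1 of 3 was higher, Bche with 26.8 and 4.04 CPM, against 10.5% of all measured genes. Of its reads in the Ghrl-rich cells, 1 cell held 62.1%. In Ngn3KO cells of set 2, 0 of 2 passed, against 7.08% higher and 5.8% lower over all measured genes.

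Genes that supply or spend fatty acyl-CoA, the substrate of the acyltransferase, showed no 2-fold difference between genotypes: 0 of 9 measured genes passed in set 2 and 0 of 9 in set 3. Acsl5, a long-chain acyl-CoA synthetase gene, had 138.98 and 78.9 CPM in Ghrl-rich and Ghrl-poor Ngn3KO cells of set 2, and Acsl4 had 75.4 and 55.3 CPM. In Ghrl-rich against Ghrl-poor cells 0 of 9 passed in Ngn3KO cells of set 2, 2 of 9 were higher and 2 lower in Neurod1OE cells of set 2, and 1 of 10 was higher in Neurod1OE cells of set 3. Over all measured genes the shares higher and lower were 7.08% and 5.8%, 10.5% and 14.7%, and 13.6% and 16% in the same order. Among the 10 other genes of the membrane-bound O-acyltransferase (MBOAT) family, 1 of 7 measured was lower in Ngn3KO cells of set 2, Mboat1 with 5.91 and 13.9 CPM in Ngn3KO and Neurod1OE cells, and in set 3 it was higher with 15.7 and 5.20 CPM. Porcn, which acylates Wnt proteins, and Dgat1, which makes triglycerides, were 2-fold lower in Ngn3KO cells of set 3. Of 7 family genes measured there, these 2 were lower and 1 was higher, against 31.8% and 5.96% of all measured genes. Soat1, a cholesterol acyltransferase gene, was lower in Ghrl-rich cells of set 2, with 41.9 and 121.3 CPM in Ghrl-rich and Ghrl-poor Ngn3KO cells and 34.2 and 74 CPM in Neurod1OE cells, but stood at 107.2 and 80.6 CPM in Neurod1OE cells of set 3.

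Of 12 transcription factor genes linked to the epsilon lineage, 0 of 10 measured passed 2-fold between genotypes in set 2. Over all measured genes of set 2, 0.859% were higher and 1.67% lower in Ngn3KO cells. In set 3, 11 of 12 were lower in Ngn3KO cells, against 31.8% of all measured genes. The list's median log2 ratio there was -2.74, against -0.57 for all. Between Ghrl-rich and Ghrl-poor cells, 1 of 10 measured was lower in Ngn3KO cells of set 2 and 1 of 11 in Neurod1OE cells of set 2, against 5.8% and 14.7% of all measured genes. In Neurod1OE cells of set 3, 3 of 12 were lower and 1 higher, Isl1 with 743 and 341 CPM, against 16% and 13.6%. Nkx6-1, which encodes a beta-cell factor, was lower in all 3 groups: 20.5 and 51.9 CPM in Ngn3KO cells of set 2, 15.2 and 31.6 CPM in Neurod1OE cells of set 2, and 15 and 40.4 CPM in Neurod1OE cells of set 3. Pax4, whose loss in mice raises ghrelin cells, had 1.84 and 39.2 CPM in Ghrl-rich and Ghrl-poor Neurod1OE cells of set 3, and 5.43 and 10.7 CPM in Neurod1OE cells of set 2, under the 2-fold mark. Of the other epsilon markers, Irs4 had 45 and 0.20 CPM in Ghrl-rich and Ghrl-poor Ngn3KO cells of set 2 and 60.6 and 1.49 CPM in Neurod1OE cells of set 3, but 1 cell held 80.8% and 98.6% of those reads in the Ghrl-rich cells. Acsl1 was lower in Ghrl-rich Neurod1OE cells of set 2, with 2.28 and 12.2 CPM. Ghrl-rich cells are therefore called by that rule and are given no cell type name.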

How the data were processed

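The authors deposited raw read counts per gene and cell, without normalization, as 1 sparse matrix for each set. Per the submitters' processing notes, Trimmomatic 0.39, HISAT2 2.1.0 and featureCounts 2.0.0 were used with mm10. The annotation, strand setting, use of molecule barcodes and cell filter are not given in the sources used here. The 92 ERCC spike-ins were left out. No 2 cells held identical values. Each well held 1 cell, so no doublet caller was run.

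Counts were summed per genotype and set and expressed as CPM of the plain total, and log2 ratios had 1 CPM added. Measured genes, bands and intervals are defined in the text. Thinning to the 10th percentile of totals used seed 0. Totals ran from 25769 to 2788066 reads per cell, so 1 read was worth at least 0.359 CPM. Coordinates come from GENCODE vM21, and promoters from RefSeq. Scripts were tested on simulated data. Python 3.11.15, numpy 2.4.6, scipy 1.17.1, pandas 2.3.3 and matplotlib 3.10.9 were used, with edgeR 4.0.16 and DESeq2 1.42.0 (R 4.3.3) for scaling factors only.

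Members and gene lists were chosen with earlier results of these data known. Named were Ghrl, Mboat4, list members past 2-fold or at 50 CPM in Ghrl-rich cells (not all are given), and the 12 genes with the highest and 6 with the lowest rho with Ghrl, without predicted, mitochondrial and ribosomal protein genes.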

Additional observations from a re-analysis of the deposited data

Results flagged for a closer look

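The log2 ratio of Ghrl in Ngn3KO over Neurod1OE cells was 1.16 in set 2 and -3.65 in set 3, a difference of 4.81 on the log2 scale between the sets. It is listed because the ratio was past 2-fold in opposite directions in the 2 sets. The difference was not tested, since each genotype is 1 sample per set. Beside it stand 29 of 30 Ngn3KO cells of set 3 with Cpa1 at 1000 CPM and Gcg below, against 15 of 95 Neurod1OE cells, and the 1 cell per genotype that held 56.9% of the Ghrl reads in Ngn3KO and 57.5% in Neurod1OE cells of set 3. Their part in the difference was not tested.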

How the results depend on the processing

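The log2 ratio of Ghrl in set 2 was 1.22 with TMM factors, 1.22 with DESeq2 size factors, 1.19 with hormone reads left out of the total, 0.85 with cells weighted equally, 1.43 without the top cell of each genotype, 0.97 after dropping the 2% of cells of highest totals, 0.70 in Gm12338-positive, 1.52 in Gm12338-negative and 0.94 in female cells. In set 3 it was -3.17, -3.07, -4.16 (equal weight), -3.57 (no top cell), -3.98 (no high totals) and -4.01 (male cells). For Mboat4, set 2 gave -0.30 (equal weight), -0.063 (no top cell), -0.090 (no high totals), 0.57 (Gm12338-positive), -0.068 (Gm12338-negative) and -0.49 (female), and set 3 gave -1.84 (TMM), -1.75 (DESeq2), -3.01 (equal weight), -2.75 (no top cell) and -2.94 (no high totals). The cause was not tested. Spearman's correlation of Ghrl with Mboat4 under 1000 CPM of Ghrl was 0.082 in Ngn3KO set 2 and 0.043 in Neurod1OE set 3, and Pearson's r of log2 values in Neurod1OE set 3 was 0.34. Of 56 alternatives for ratios and correlations, these 29 moved a value beyond its counting interval or comparable limit and 27 did not. Gcg cells alone gave no ratio in set 3, where Ngn3KO had 1 such cell. Genes past 2-fold in set 2 numbered 253, and 531 with no minimum CPM. No paired analysis was possible because the labels give no replicate shared by the genotypes. Depth limits Mboat4, whose 98 reads in Ngn3KO cells of set 3 leave an interval of 3.61 to 5.41 CPM.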

Other observations

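Markers of other cell types in Ghrl-rich cells were counted at 50 CPM or more of summed level. The pan-endocrine list stood at that level in 13 of 14 genes in Ghrl-rich Ngn3KO cells of set 2 and 14 of 14 in both Neurod1OE groups, against 14 of 14 in Ghrl-poor cells of all 3 groups. The alpha list stood there in 10 of 11 genes in each group of Ghrl-rich cells, against 10 or 11 of 11 in Ghrl-poor cells, so neither list sets the Ghrl-rich cells apart. Slc38a5, an amino acid transporter gene of the alpha list, had 14744 and 9281 CPM in Ghrl-rich and Ghrl-poor Ngn3KO cells of set 2. In Ghrl-rich cells, endothelial markers summed to between 0 and 1.59 CPM and immune markers to between 1.84 and 7.01 CPM over the 3 groups. The 13 acinar markers summed to 162.9 CPM in Ghrl-rich and 387 CPM in Ghrl-poor Ngn3KO cells of set 2, 1117 and 801 CPM in Neurod1OE cells of set 2, and 8170 and 7957 CPM in Neurod1OE cells of set 3. In the Ghrl-rich cells of the last group 6 of 13 stood at 50 CPM, and 1 cell held 93.7% of the Cpa1 reads and 75.8% of those of the colipase gene Clps. Of 9 duct and trunk markers, 2, 3 and 5 stood at 50 CPM in Ghrl-rich cells of the 3 groups, against 2, 3 and 4 in Ghrl-poor cells. Of 6 hepatic markers, 3, 2 and 5 did so in Ghrl-rich cells, against 4, 1 and 2 in Ghrl-poor cells. Of 9 stomach or gut epithelium markers, 1, the gastrin gene Gast, was at 50 CPM or more, and the stomach markers Gkn1 and Gkn2 were at 0.

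Rbp4, the retinol-binding protein gene on the delta list, had 3758 and 2328 CPM in Ghrl-rich and Ghrl-poor Ngn3KO cells of set 2, 6658 and 1512 CPM in Neurod1OE cells of set 2, and 4212 and 924 CPM in Neurod1OE cells of set 3. Other members of the delta list moved differently: the log2 ratio of Cd24a was 1.39, -2.11 and -2.32, that of Hhex -0.19, -2.90 and -1.49 and that of Sst -1.53, 1.49 and -0.39 in the same order, and Ghsr was at 0. The cell-cycle inhibitor gene Cdkn1a was 2-fold higher in Ghrl-rich cells of all 3 groups, with 276 and 120.4 CPM, 575 and 128.5 CPM, and 774 and 323 CPM in the same order, and 1 cell held 52.9% and 68.5% of its reads in the Ghrl-rich Neurod1OE cells of set 2 and set 3. Slc38a5, Rbp4 and Cdkn1a were picked after their values were seen.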
